A study of Mus musculus with 6 samples.

Results

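The nuclear genes that encode the subunits of the 4 respiratory complexes and of ATP synthase were followed in liver transcripts of mice carrying a mutant allele of Ing5. Members were taken by name: Ensembl gene rows whose mouse symbol begins with Nduf followed by a, b, c, s or v and a number, is Sdha, Sdhb, Sdhc or Sdhd, or begins with Uqcr, Cox4 to Cox8 or Atp5. After 6 names holding -ps (pseudogenes, with 0 to 2 counts per library) were left out, 88 of the 37991 gene rows were members. By symbol they comprised 40 genes of complex I, 4 of complex II, 8 of complex III, 19 of complex IV and 17 of complex V. The rule does not take Ndufab1, the acyl carrier subunit of complex I, or Cyc1, the cytochrome c1 subunit of complex III, and Ndufa4, grouped here with complex I by its symbol, is known as a complex IV subunit.

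Polyadenylated RNA had been sequenced from 6 livers of FVB mice, all 84 days old. In 3 livers both copies of Ing5 were wild type (Ing5 +/+, written WT1 to WT3), and in the other 3 a single copy was the MommeD48 allele (Ing5 MommeD48/+, written Het1 to Het3). Ing5 encodes a chromatin-binding subunit of histone acetyltransferase complexes, and the study asked what heterozygosity for the mutation does to liver transcripts. Heterozygotes keep a wild-type copy, and the labels name the allele without describing its lesion. Nor do they state that the numbered livers of a genotype are from different animals. The p-values therefore reflect only how far these libraries differ, and part of that may be technical.

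Complex I oxidises NADH and complex II oxidises succinate, and both pass electrons through ubiquinone to complex III, then through cytochrome c to complex IV, which reduces oxygen. Complexes I, III and IV pump protons across the inner mitochondrial membrane, and complex V, the ATP synthase, uses that gradient to make ATP. Hepatocytes are rich in mitochondria, and all of these complexes except complex II are mosaics of nuclear subunits, imported after translation in the cytosol, and subunits encoded in the mitochondrial genome.

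Library totals ranged from 19840541 to 22041117 counts, and 16323 to 16597 genes had at least 1 count. Levels are given as CPM (counts scaled to library size after TMM normalisation), and 3 counts, the limit that a count of 0 allows, corresponded to 0.136 to 0.154 CPM, which covers counting error only. Ing5 itself had 182, 228 and 191 counts in WT1 to WT3 and 193, 217 and 180 in Het1 to Het3. Its mean level was 9.65 ± 0.807 CPM in WT livers (SD, n = 3) against 9.33 ± 0.607 CPM in heterozygous ones (n = 3), a log2 fold change of -0.05 (SE 0.11, 95% interval -0.30 to 0.20). The groups overlapped, and an exact two-sided permutation test gave p = 0.8, where 0.1 is the smallest that 3 livers against 3 allow. A count per gene does not show which allele a read came from, so this level does not check the genotype labels. The summed hepatocyte markers lay between 76402 and 99103 CPM, while the summed brown adipocyte markers did not exceed 0.154 CPM, Ucp1 had 0 counts in every library, and the summed striated muscle markers reached at most 0.828 CPM.

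WT2 and WT3 stood at opposite ends of the 6 livers for these genes. The members together took 1.03%, 0.940% and 1.17% of all counts in WT1, WT2 and WT3, and 1.05%, 1.05% and 1.09% in Het1, Het2 and Het3. WT2 thus held the smallest share and WT3 the largest, with all 3 Het livers between them. Counts of members by direction and by unadjusted p are therefore also given below without WT2 or without WT3. Most values of single genes and complexes are given with all 6 livers only and can shift when either is left out. The median log2 fold change of complex IV, for example, was 0.02 with all livers, -0.10 without WT2 and 0.16 without WT3.

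Summed transcript levels of the 5 complexes overlapped between the genotypes. Complex I transcripts summed to 2713, 2458 and 3145 CPM in WT1 to WT3 and to 2854, 2753 and 2812 CPM in Het1 to Het3. The corresponding sums for complex II were 996, 876 and 1043 CPM against 956, 950 and 998 CPM. Those for complex III were 1355, 1376 and 1604 CPM against 1543, 1246 and 1396 CPM. For complexes I and II every Het liver lay between the lowest and the highest WT liver, whereas for complex III Het2 lay below all others. Of the 8 complex III genes, 7 were lowest in WT2, and only Uqcrc2, the most abundant, was lowest in Het2. Uqcrc2 measured 264 CPM in Het2 against 403 to 544 CPM in the other livers, and it is part of the complex III sums and ratio. Complex IV transcripts summed to 1429, 1262 and 1758 CPM in WT livers against 1474, 1497 and 1523 CPM in Het livers. Complex V transcripts summed to 3851, 3432 and 4384 CPM in WT livers against 3926, 3820 and 3965 CPM in Het livers. In both complexes the Het livers again lay within the WT range. The ratio of the Het mean to the WT mean was 1.01 for complex I, 0.996 for complex II, 0.965 for complex III, 1.01 for complex IV and 1.004 for complex V. All 88 genes together summed to 10560 ± 1280 CPM in WT livers (SD, n = 3) against 10571 ± 266 CPM in Het livers (n = 3). In bulk tissue, fewer cells of a type and less RNA per cell cannot be told apart.

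**Figure D1:**
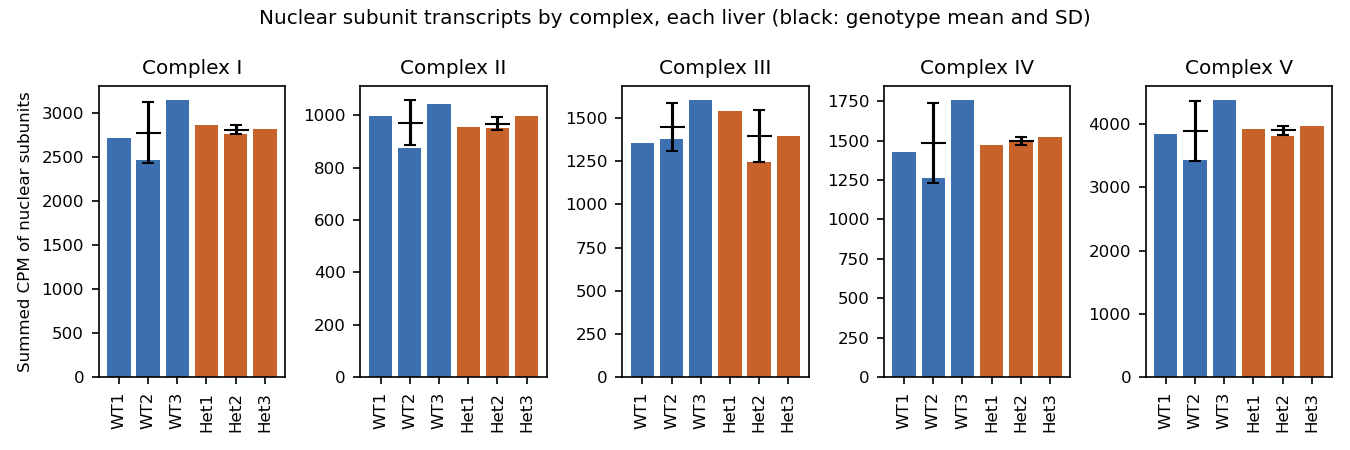
Summed CPM of the nuclear subunit genes of each complex (vertical axes, starting at 0) in each liver, with WT livers in blue and Het livers in orange and the mean ± SD of each genotype in black (n = 3). WT2 is the lowest and WT3 the highest of the 6 livers for complexes I, II, IV and V, and for complex III the lowest is Het2 (1246 CPM). Among the complex III genes only Uqcrc2 is itself lowest in Het2.

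No subunit gene passed the test between the genotypes. Of the 88 members, 77 had enough counts to be tested among 12631 genes, and by edgeR's quasi-likelihood test with Benjamini-Hochberg adjustment 0 of 77 passed an adjusted p of 0.05, beside 0 of all genes tested (0%). All 77 had an adjusted p of 0.9998. At an unadjusted p of 0.05 the test took 547 of all genes (4.33%, with 2.12% higher and 2.21% lower in Het livers) and 0 members, and DESeq2, which called 13 of all genes, and limma-voom, which called 0, likewise called 0 members. In 45 members the fold change was above 0 and in 32 below it, where 50.3% of all tested genes were above and 49.7% below. The median log2 fold change of Het over WT was 0.01 over the 77 members, close to that of all tested genes, with 0.01 for complex I, -0.01 for complex II, -0.01 for complex III, 0.02 for complex IV and 0.01 for complex V. In no member were the 3 Het livers all above or all below the 3 WT livers, an arrangement seen in 8.99% of all genes (4.72% with Het higher and 4.28% with Het lower).

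Intervals show how large a difference could have gone unseen. The 95% interval of the fold change stayed within 1.5-fold either way for 74 of the 77 members, against 71.1% of all genes, and within 1.25-fold for 53 members, against 36.7% of all genes. These shares were not matched for level: 75 of the 77 members were at 20 CPM or more, as were 5314 of the 12631 genes tested. The 3 wider intervals were those of Ndufa4l2, Uqcrc2 and Atp5s, named after their values were seen. The direction of the small differences rested on single WT livers: 73 of 77 members were above 0 without WT3 (50.8% of all genes) and 16 of 77 without WT2 (51.0% of all genes). Without WT3, 16 members had an unadjusted p under 0.05, all higher in Het livers (20.8% of members against 5.37% of all genes), and 0 were lower (5.44% of all genes), and 0 passed an adjusted p of 0.05. Without WT2, 1 member was higher and 1 lower at that unadjusted p, where 1.94% and 2.23% of all genes were.

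**Figure D2:**
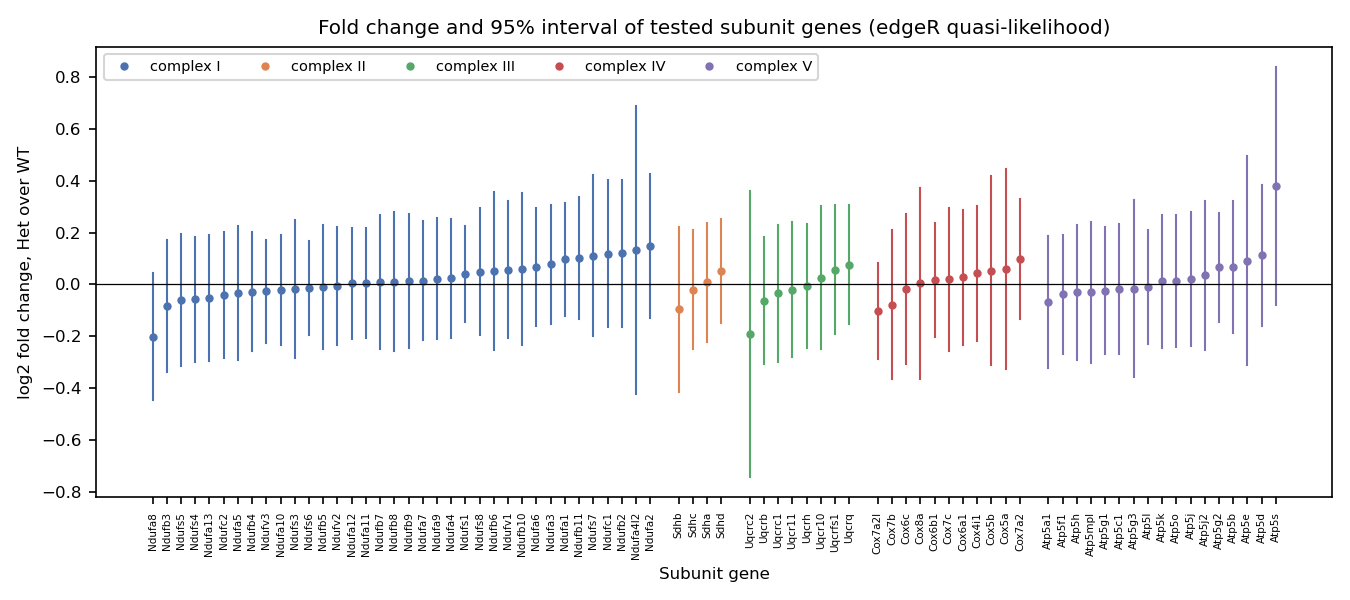
Log2 fold change of Het over WT (vertical axis) for tested subunit genes, ordered by value within each complex; points are edgeR estimates and lines their 95% intervals. Every interval shown crosses 0, from Ndufa8 at -0.20 to Atp5s at 0.38, and the widest belong to Atp5s, Ndufa4l2 and Uqcrc2.

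Complex I is the largest of the complexes, with a peripheral arm that binds NADH and a membrane arm that pumps protons. Of its 40 genes, 37 were tested, with 23 above and 14 below 0. Its nuclear core subunits carry the flavin and the iron-sulphur clusters. Ndufv1, which binds the flavin and NADH, was at 129 ± 20.2 CPM in WT livers against 134 ± 9.01 CPM in Het livers (SD, n = 3 each, as for all pairs of means that follow). Its neighbour Ndufv2 was at 103 ± 10.2 and 103 ± 9.07 CPM, and Ndufs1, the largest peripheral subunit, at 146 ± 6.60 and 150 ± 5.64 CPM. Ndufs3 was at 93.7 ± 16.5 and 92.7 ± 2.99 CPM. Ndufs7 and Ndufs8, which hold the clusters nearest to ubiquinone, were at 46.1 ± 8.77 and 49.8 ± 5.33 CPM and at 54.3 ± 8.19 and 56.1 ± 3.27 CPM. In each of these genes the genotypes overlapped.

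The supernumerary subunits of complex I, which surround the core, gave the same picture. The NADH-binding module (10 tested genes), the ubiquinone module (6) and the membrane arm (19) had median log2 fold changes of 0.01, 0.04 and 0.01. The member with the smallest p in complex I was Ndufa8 (ENSMUSG00000026895), a membrane arm subunit with disulphide bonds. It measured 72.8, 65.4 and 80.7 CPM in WT1 to WT3 and 71.99, 58.2 and 60.1 CPM in Het1 to Het3, so Het2 and Het3 lay below every WT liver and Het1 did not. Its log2 fold change was -0.20 (SE 0.11, edgeR unadjusted p = 0.0967, adjusted p = 0.9998). Ndufa2, a subunit of the NADH-binding module, measured 41.9, 39.1 and 55.6 CPM in WT livers against 48.7, 50.9 and 51.6 CPM in Het livers, with a log2 fold change of 0.15 (SE 0.12). Its log2 fold change was 0.32 without WT3 and 0.05 without WT2. Here WT3 exceeded all Het livers and the other two WT livers lay below them.

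Complex II, also the succinate dehydrogenase of the citric acid cycle, has 4 subunits, all nuclear. Sdha, the flavoprotein with the succinate site, was at 505, 446 and 478 CPM in WT1 to WT3 and 461, 473 and 503 CPM in Het1 to Het3. Sdhb, the iron-sulphur subunit, measured 180, 140 and 215 CPM against 164, 161 and 176 CPM, a log2 fold change of -0.10 (SE 0.14) that became 0.06 without WT3. The membrane anchors Sdhc and Sdhd were at 133 ± 16.6 and 131 ± 5.45 CPM and at 184 ± 14.2 and 191 ± 2.11 CPM, with a log2 fold change of 0.05 (SE 0.09) for Sdhd. All 4 genes had every Het liver within the WT range.

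Complex III, the cytochrome bc1 complex, had all 8 genes tested, with 3 above and 5 below 0. The core protein gene Uqcrc1 measured 193, 186 and 248 CPM in WT1 to WT3 and 208, 200 and 204 CPM in Het1 to Het3. Uqcrq, a small subunit next to cytochrome b, measured 171, 168 and 205 CPM against 185, 203 and 187 CPM, a log2 fold change of 0.08 (SE 0.10). The Het livers of both lay within the WT range. The third of the abundant genes, Uqcrc2, was the exception of this complex and is described separately below.

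Complex IV, cytochrome c oxidase, had 11 of 19 genes tested, and the remaining 8 were at or near 0 (described below). Cox4i1, a regulatory subunit, was at 254 ± 37.3 CPM in WT livers against 262 ± 8.30 CPM in Het livers. Cox7b and Cox6a1, small subunits of the membrane part, were at 168 ± 31.7 and 160 ± 4.41 CPM and at 152 ± 24.4 and 155 ± 4.68 CPM. In all 3 the WT spread exceeded the Het spread. The smallest p belonged to Cox7a2l, whose product joins complexes III and IV into supercomplexes. It measured 63.6, 61.4 and 59.9 CPM in WT livers against 62.5, 55.3 and 54.4 CPM in Het livers, a log2 fold change of -0.10 (SE 0.08, edgeR adjusted p = 0.9998). Its relative Cox7a2, a subunit of the enzyme itself, measured 100, 97.1 and 121 CPM against 121, 108 and 112 CPM, a log2 fold change of 0.10 (SE 0.10).

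Complex V had all 17 genes tested, 9 above and 8 below 0. Its catalytic head genes were the most abundant members by CPM: Atp5b, the β subunit, at 1031 ± 96.3 CPM in WT livers against 1081 ± 41.0 CPM in Het livers, and Atp5a1, the α subunit, at 927 ± 90.9 and 885 ± 27.0 CPM. The c ring, the rotor driven by protons, is made from 3 genes for the same mature protein. Atp5g3 was at 300 ± 69.7 and 297 ± 15.7 CPM, Atp5g1 at 90.2 ± 13.6 and 88.7 ± 2.24 CPM, and Atp5g2 at 74.6 ± 7.86 and 78.1 ± 4.07 CPM. In all 3 the Het livers lay within the WT range. Atp5d, the δ subunit of the central stalk, measured 122, 124 and 166 CPM against 145, 149 and 151 CPM, a log2 fold change of 0.11 (SE 0.12) that was 0.27 without WT3 and 0.04 without WT2. Atp5s (ENSMUSG00000054894), a factor associated with ATP synthase and listed by RefSeq as Dmac2l, was the lowest complex V gene and had the smallest p of all members. It measured 3.08, 4.54 and 3.34 CPM in WT livers against 5.88, 4.37 and 4.05 CPM in Het livers, and WT2 lay above Het2 and Het3. Its log2 fold change was 0.38 (SE 0.20, 95% interval -0.08 to 0.84, edgeR unadjusted p = 0.0946, adjusted p = 0.9998). Atpif1, the inhibitor of ATP synthase and no member by the naming rule, was at 9.16 ± 1.72 and 9.47 ± 0.934 CPM.

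Across the livers, most members of all 5 complexes shared an order, a pattern noticed after their values were seen. WT3 was the highest of the 6 livers for 70 of 77 members (21.7% of all tested genes) and WT2 the lowest for 67 (17.6% of all genes). Both held for 64 of 77 members, 83.1%, against 7.51% of all genes. The median log2 difference of WT3 over WT2 was 0.37 in complex I, 0.29 in complex II, 0.41 in complex III, 0.52 in complex IV and 0.42 in complex V, and 0.00 over all tested genes. Members share libraries and are not replicates of a condition, so these counts describe 2 livers.

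The Het livers lay close together, between those 2 WT livers, for most members. All 3 Het values lay within the WT range for 68 of 77 members, against 26.0% of all genes, and all 3 WT values lay within the Het range for 1 member, against 17.3%. The 64 members with WT3 highest and WT2 lowest are among these 68 by definition. In them the WT values cannot lie within the Het range, nor can the genotypes separate. These counts therefore largely restate the positions of WT2 and WT3. The median SD of log2 CPM was 0.21 over the WT livers and 0.06 over the Het livers, where all tested genes had 0.15 and 0.13. The 5314 genes at 20 CPM or more, which include 75 of the 77 members, had 0.11 and 0.09. Cox5a, a matrix-facing subunit of complex IV, shows the shape: 113, 90.9 and 151 CPM in WT1 to WT3 and 115, 121 and 133 CPM in Het1 to Het3. Atp5e, the ε subunit of complex V, measured 67.8, 56.1 and 94.9 CPM against 79.7, 73.5 and 79.8 CPM. In both genes the lowest and the highest liver were WT2 and WT3. The difference in spread was not tested.

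**Figure D3:**
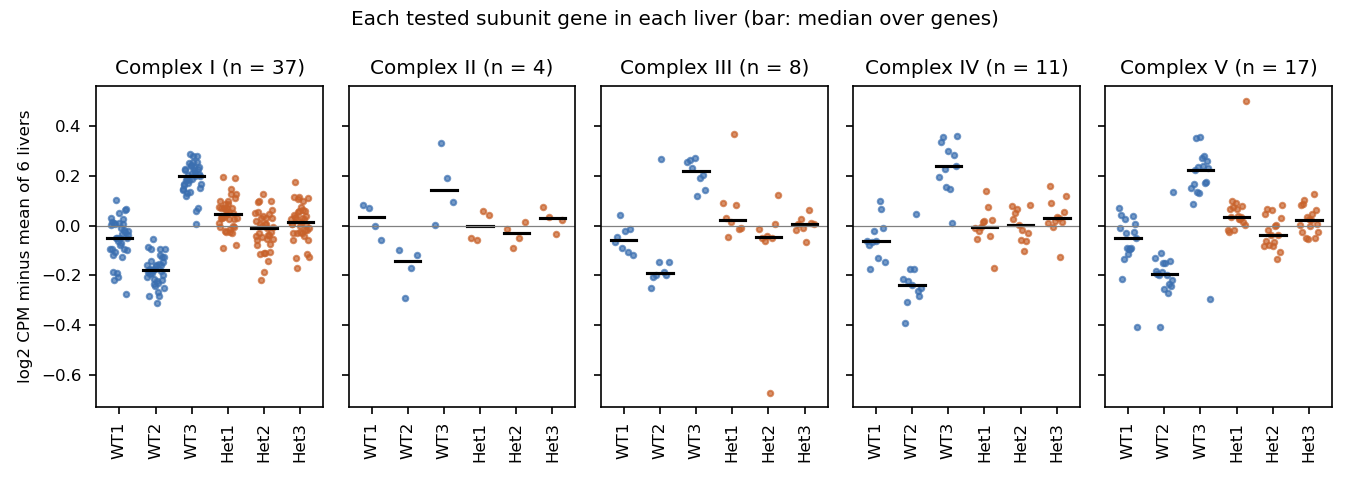
Log2 CPM of each tested subunit gene minus its own mean over the 6 livers (vertical axis), by liver and complex, with WT livers in blue and Het livers in orange; each point is a gene and each bar the median over genes. In every complex the median is lowest in WT2 and highest in WT3, and the isolated points near -0.67 in Het2 and 0.37 in Het1 under complex III are Uqcrc2.

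The members that departed from this order were 13, of which 8 were in complex I (Ndufa12, Ndufa4l2, Ndufa5, Ndufa8, Ndufb3, Ndufs1, Ndufs7 and Ndufv2). The others were Sdha, Uqcrc2, Cox7a2l, Atp5d and Atp5s. Of these, only Uqcrc2, Cox7a2l and Atp5s were lower in WT3 than in WT2. The smallest spread of any member was that of Ndufs1, with an SD of log2 CPM over the 6 livers of 0.06. The difference was larger for shorter transcripts up to 3000 bases: the median WT3 over WT2 difference was 0.44 (log2) for the 40 members with transcripts under 750 bases, 0.38 for the 23 from 750 to 1500 bases and 0.27 for the 13 from 1500 to 3000 bases. The 1 member of 3000 bases or more had 0.36, above the class before it. Other tested genes of the same length classes had 0.22, 0.14 and 0.04, and those of 3000 bases or more had -0.10. The part that length plays in the members' difference was not tested.

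Other transcripts also set WT2 and WT3 apart. The 20 acute-phase genes, induced in hepatocytes during inflammation, summed to 38079, 59265 and 22376 CPM in WT1 to WT3 and 35004, 26462 and 24059 CPM in Het1 to Het3, so WT2 was the highest and WT3 the lowest. The 13 mitochondrially encoded subunits summed to 112900, 107510 and 134632 CPM in WT livers against 118162, 111020 and 110125 CPM in Het livers. WT3 was the highest liver for both genomes' subunits, and WT2 the lowest. Kupffer cell and leukocyte markers summed to 110, 107 and 70.8 CPM against 94.2, 125 and 75.0 CPM, and erythroid markers to 213, 287 and 179 CPM against 165, 106 and 220 CPM. Other marker lists were higher in WT3 than in WT2 by their median, but were mixed. The median log2 difference of WT3 over WT2 was 0.51 for 8 hepatocyte markers, 0.44 for 6 stellate cell and fibroblast markers, 0.22 for 6 endothelial markers and 0.15 for 5 cholangiocyte markers, and 0.58 for Cela1, the single tested acinar marker. WT3 was highest and WT2 lowest for 3 of the 8 hepatocyte and 1 of the 6 endothelial markers. That order held for 0 stellate cell and fibroblast and 0 cholangiocyte markers, against 64 of 77 members. As log2 CPM minus the mean of the 6 livers, cholangiocyte markers averaged -0.03 in WT2 and -0.07 in WT3. Summed hepatocyte markers were at 80357, 76402 and 98368 CPM in WT1 to WT3 and 99103, 86952 and 83551 CPM in Het1 to Het3, and stellate cell and fibroblast markers at 197, 153 and 222 CPM against 203, 247 and 201 CPM. WT2 was the lowest liver for both, while the highest was a Het liver. The part of these marker sets in the members' pattern was not tested.

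Lists of related genes chosen by name gave 0 calls in the same edgeR fit. Of the 12 tested mitochondrially encoded subunits, 1 was above and 11 below 0 (49.7% of all tested genes were below), with a median log2 fold change of -0.08. The most abundant, mt-Co1 and mt-Co3, catalytic and structural subunits of complex IV, were at 39867 ± 4578 and 37855 ± 2139 CPM and at 14703 ± 2407 and 14240 ± 258 CPM. The single gene above 0, mt-Atp8, a membrane subunit of complex V whose gene overlaps mt-Atp6, measured 43.1, 45.5 and 44.4 CPM in WT livers against 49.1, 51.6 and 54.4 CPM in Het livers. Those groups did not overlap, which held for 1 of the 12 tested genes here and for 8.99% of all tested genes. For mt-Atp8 the edgeR unadjusted p was 0.0155 and the adjusted p 0.9998, and reads of the overlapping genes may be split between them.

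Factors that assemble the complexes had members on both sides of 0, with 0 adjusted calls. Of 18 complex I assembly genes 8 were above and 10 below 0, with Acad9, a flavoprotein of the assembly complex, at 63.1 ± 3.66 and 61.7 ± 6.31 CPM. Of 34 genes for assembly of complexes II to V, 20 were above and 14 below 0, with Lrpprc, which stabilises mitochondrial transcripts, at 145 ± 2.51 and 146 ± 7.15 CPM. Sco2, a copper chaperone of complex IV and the member of that list with the smallest p (0.0846, unadjusted), was at 36.5 ± 7.21 and 43.3 ± 2.39 CPM. The 14 citric acid cycle genes split into 6 above and 8 below 0. Suclg2, a subunit of succinyl-CoA ligase, was at 316 ± 6.05 and 278 ± 10.9 CPM. Of 76 mitochondrial ribosomal proteins, 41 were above and 35 below 0. Of 94 cytosolic ribosomal proteins 82 were above 0, beside 50.3% of all tested genes, with a median log2 fold change of 0.08 and 0 adjusted calls. The cytosolic ones summed to 9656, 9704 and 11006 CPM in WT1 to WT3 and 10670, 10790 and 10520 CPM in Het1 to Het3. WT3 thus exceeded every Het liver, while WT1 and WT2 lay below them. WT3 was highest and WT2 lowest for 23 of those 76 mitochondrial ribosomal genes, against 64 of 77 subunit genes and 7.51% of all tested genes. That order held for 6 of 12 mitochondrially encoded subunits, 4 of 6 nuclear subunits and electron carriers outside the rule, and 6 of 14 citric acid cycle genes. It also held for 23 of 94 cytosolic ribosomal genes, 11 of 34 assembly genes of complexes II to V, 3 of 18 of complex I and 2 of 14 genes listed for mitochondrial mass.

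Most transcriptional regulators of respiratory genes did not follow the WT2 and WT3 order, nor did most of all tested genes. Among 15 tested regulators, WT3 was the highest liver for 2, beside 21.7% of all tested genes. WT3 was highest and WT2 lowest for 1, beside 7.51% of all tested genes. Between genotypes, 8 of the regulators were above and 7 below 0. Gabpa, an ETS factor of many mitochondrial genes, was at 53.0 ± 0.742 CPM in WT livers against 54.3 ± 3.48 CPM in Het livers. Tfam, which binds mitochondrial DNA and takes part in starting its transcription, was at 51.6 ± 2.17 and 52.2 ± 2.30 CPM. Esrra, an orphan nuclear receptor of the same programme, was at 24.8 ± 3.21 and 27.5 ± 0.351 CPM.

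The letters of the members' promoters are shown for a gene of each complex. RefSeq promoter sequences (GRCm38.p6, 250 bases before to 50 after each listed start) matched 68 of the 88 members, 2 of them under other symbols. Searches on both strands used GCATGCG (the NRF1 core), CCGGAAG (an ETS core, bound by GABPA), AAGATGG (YY1) and CAAGGTC (ESRR receptors), and matches of different motifs may overlap. The NRF1 letters occurred in 11 of 68 member promoters (16.2%, against 4.96% of 17492 protein-coding promoters) and the ETS letters in 16 (23.5% against 12.9%). The YY1 letters occurred in 11 (16.2% against 7.18%) and the ESRR letters in 6 (8.82% against 4.24%). At least 1 of the 4 motifs was present in 33 promoters (48.5%, against 25.7%). Below are the 120 bases before the listed start of a gene of each complex, 5′ to 3′ on the gene's strand, with the motif or its reverse complement in capitals. Each is the most abundant of the matched members of its complex whose window holds a motif. More abundant members such as Uqcrc2, Cox4i1 and Atp5a1 were not matched, so their windows were not searched. All 5 genes lie on the minus strand. Annotated starts differ between sources: relative to the RefSeq start, the GENCODE M21 gene start of the same build lay at 37 bases for Sdhd, -31 for Ndufa6, -23 for Cox6a1, -1 for Uqcrh and 0 for Atp5g3, with positive values downstream.
Ndufa6, complex I, NRF1 letters, chr15:82354292-82354411: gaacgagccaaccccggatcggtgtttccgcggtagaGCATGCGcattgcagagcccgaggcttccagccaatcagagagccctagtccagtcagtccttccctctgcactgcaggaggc
Sdhd, complex II, ETS letters, chr9:50603850-50603969: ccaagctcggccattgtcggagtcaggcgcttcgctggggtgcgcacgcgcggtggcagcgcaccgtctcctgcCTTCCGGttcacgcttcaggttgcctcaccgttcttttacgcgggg
Uqcrh, complex III, ETS letters, chr4:116075071-116075190: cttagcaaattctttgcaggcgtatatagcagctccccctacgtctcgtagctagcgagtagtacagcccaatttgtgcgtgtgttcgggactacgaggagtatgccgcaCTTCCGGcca
Cox6a1, complex IV, ETS letters, chr5:115348959-115349078: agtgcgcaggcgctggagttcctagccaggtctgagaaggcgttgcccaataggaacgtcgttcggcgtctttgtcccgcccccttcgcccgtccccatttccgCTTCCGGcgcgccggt
Atp5g3, complex V, ESRR letters, chr2:73911327-73911446: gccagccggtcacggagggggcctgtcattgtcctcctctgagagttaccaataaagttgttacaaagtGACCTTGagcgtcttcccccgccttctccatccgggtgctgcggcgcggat

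All 5 of these genes had their highest level in WT3 and their lowest in WT2, an order shared by 64 of the 77 tested members. Uqcrh, the hinge protein of complex III, was for example at 141, 123 and 163 CPM in WT1 to WT3 and at 141, 143 and 143 CPM in Het1 to Het3. Ndufa4, Uqcrc1, Cox7b and Atp5b, whose windows of 120 bases hold none of the motifs, had the same order, and Sdha, also without one there, did not. Whether the letters bear on the order was not tested. A match is a description of the letters and not a measured binding site.

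Subunit genes differed widely in level within a complex. Per kilobase of transcript, the median over tested genes was 73.7 CPM per kb in complex I, 152 in complex II, 214 in complex III, 198 in complex IV and 179 in complex V. In complex I the range ran from Ndufa4 at 556 to Ndufa4l2 at 1.10 CPM per kb. The highest of complex II was Sdha at 165 and the lowest Sdhc at 41.7 CPM per kb. In complex III, Uqcrq was the highest at 460 and Uqcrfs1, the Rieske iron-sulphur protein, the lowest at 121 CPM per kb. Among the tested genes of complex IV, Cox4i1 was the highest at 346 and Cox7a2l the lowest at 52.7 CPM per kb. In complex V, Atp5b reached 551 CPM per kb and Atp5s 2.84 CPM per kb, and of the c ring genes Atp5g3 was at 418, Atp5g2 at 173 and Atp5g1 at 150 CPM per kb. These values use the shortest basic GENCODE transcript with the longest coding sequence for each gene, and another transcript choice would change them.

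**Figure D4:**
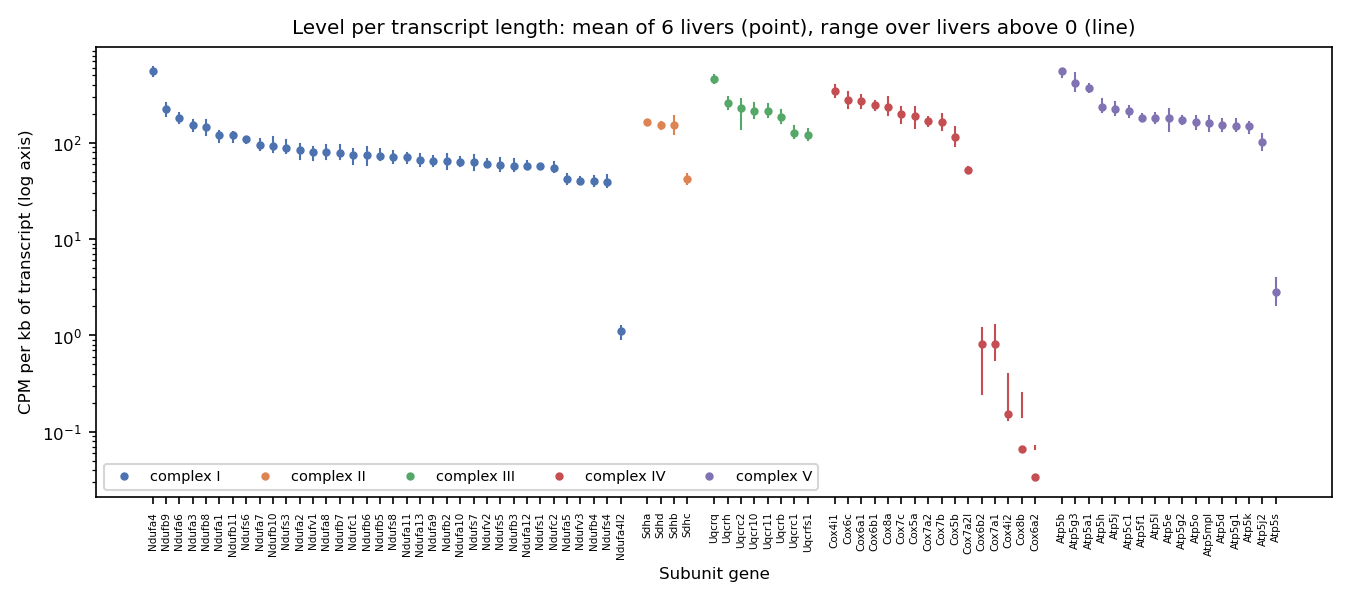
Level per transcript length (CPM per kb, log axis) of subunit genes with counts, grouped by complex and ordered by level; points are means of 6 livers and lines the range over livers above 0. The tissue-restricted isoforms of complex IV, with Ndufa4l2 and Atp5s, lie below 3 CPM per kb, while the lowest of the other members, Ndufs4, is at 39.0 CPM per kb.

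Isoforms that belong to other tissues were at or near 0. Cox6a2, Cox7a1 and Cox8b, the striated muscle forms, had 0 to 1, 6 to 12 and 0 to 2 counts per library. Cox4i2, a lung and hypoxia form, had 3, 0 and 0 counts in WT1 to WT3 and 2, 3 and 6 in Het1 to Het3. Cox6b2, a testis form, had 2, 7 and 9 counts against 5, 9 and 8. Cox7b2 and Cox8c, also testis forms, had 0 counts in all 6 libraries, which allows up to 0.154 CPM in the shallowest. Their ubiquitous partners Cox6a1, Cox7a2, Cox8a, Cox4i1, Cox6b1 and Cox7b had every Het liver within the WT range, and all 6 were highest in WT3 and lowest in WT2. Ndufa4l2, the hypoxia-inducible relative of Ndufa4, had 18, 21 and 22 counts in WT and 20, 24 and 24 in Het livers, against Ndufa4 levels of 249 ± 25.6 and 253 ± 6.84 CPM. Exact stretches shared between the transcripts of partner genes were at most 28 bases (Ndufa4 and Ndufa4l2). Processed pseudogene copies of these subunits can draw reads from their parents, and how the authors counted such reads is not given in the sources used here, so levels of small subunits are uncertain to that extent. The other members without a test were Cox6c2, Ndufa11b, Ndufb4c and Ndufs6b.

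Uqcrc2 (ENSMUSG00000030884), which encodes a core protein of complex III and is its most abundant gene by CPM, did not follow the other subunits. Its counts were 8629, 11196 and 8915 in WT1 to WT3 and 11377, 5745 and 8250 in Het1 to Het3. As CPM these were 416, 508 and 458 against 544, 264 and 403, so that Het1 was the highest liver, Het2 the lowest and WT2, the lowest liver for most subunits, the second highest. Its SD of log2 CPM over the 6 livers, 0.37, was the largest of the 77 members, where Atp5s had 0.33 and the 90th percentile of 5314 genes at 20 CPM or more was 0.24. Its log2 fold change of -0.19 (SE 0.24, 95% interval -0.74 to 0.36, edgeR adjusted p = 0.9998) became 0.04 without Het2. Every library held at least 5745 counts of the gene.

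Most genes next to Uqcrc2 on chromosome 7 were also lowest in Het2. The window, examined after the values of Uqcrc2 were seen, held the nearest 15 genes on each side with a mean of at least 5 CPM, in GENCODE order. Within it, 12 genes in a row from Pdilt to Mosmo, Uqcrc2 among them, stood apart. The order looked for allowed Het1 or WT2, the highest and second highest livers of Uqcrc2, as the highest liver. That order and the ends of the run were set with these values known, so the counts of the run are a description and no test. In 9 of the 11 genes besides Uqcrc2, Het2 was the lowest liver and Het1 or WT2 the highest, beside 8.68% of the 8916 genes at 5 CPM or more. Of these, Acsm5, Acsm1, Acsm3 and Anks4b were highest in Het1, as Uqcrc2 was. Thumpd1, Eri2, Rexo5, Dcun1d3 and Mosmo were highest in WT2. In 10 of the 11, Het1 was at least 1.5 times Het2, beside 2.76% of those 8916 genes. Of the 10 genes nearest to Uqcrc2, 8 shared its lowest liver but only 2 shared both its highest and its lowest. For the 74 other members compared, up to 4 of the nearest genes shared both. Of the 19 genes of the window outside the run, 3 had the order and 0 had the ratio, which ranged there from 0.927 to 1.28.

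The run includes 4 acyl-CoA synthetase genes for medium-chain fatty acids, Acsm5, Acsm2, Acsm1 and Acsm3. Acsm3 measured 317, 431 and 261 CPM in WT1 to WT3 and 484, 174 and 276 CPM in Het1 to Het3. Acsm1 measured 620, 758 and 641 CPM against 836, 447 and 680 CPM, and Dcun1d3, a cullin neddylation factor, 25.7, 28.4 and 17.1 CPM against 25.9, 9.48 and 17.1 CPM. The 2 genes without the order were Pdilt, lowest in WT3, and Acsm2, highest in Het3. Relative to Het2, Uqcrc2 stood at 1.57, 1.92 and 1.73 in WT1 to WT3 and at 2.06 and 1.52 in Het1 and Het3. The median of the 11 other genes of the run was 1.56, 1.94 and 1.497 in the WT livers and 1.89 and 1.57 in Het1 and Het3. Ndufab1, the complex I subunit outside the naming rule, lies in the same window beyond the run and measured 53.2, 51.1 and 73.6 CPM in WT livers against 67.3, 59.5 and 62.7 CPM in Het livers, highest in WT3 and lowest in WT2 like most subunits. The cause of the shared order on chromosome 7 was not tested.

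**Figure D5:**
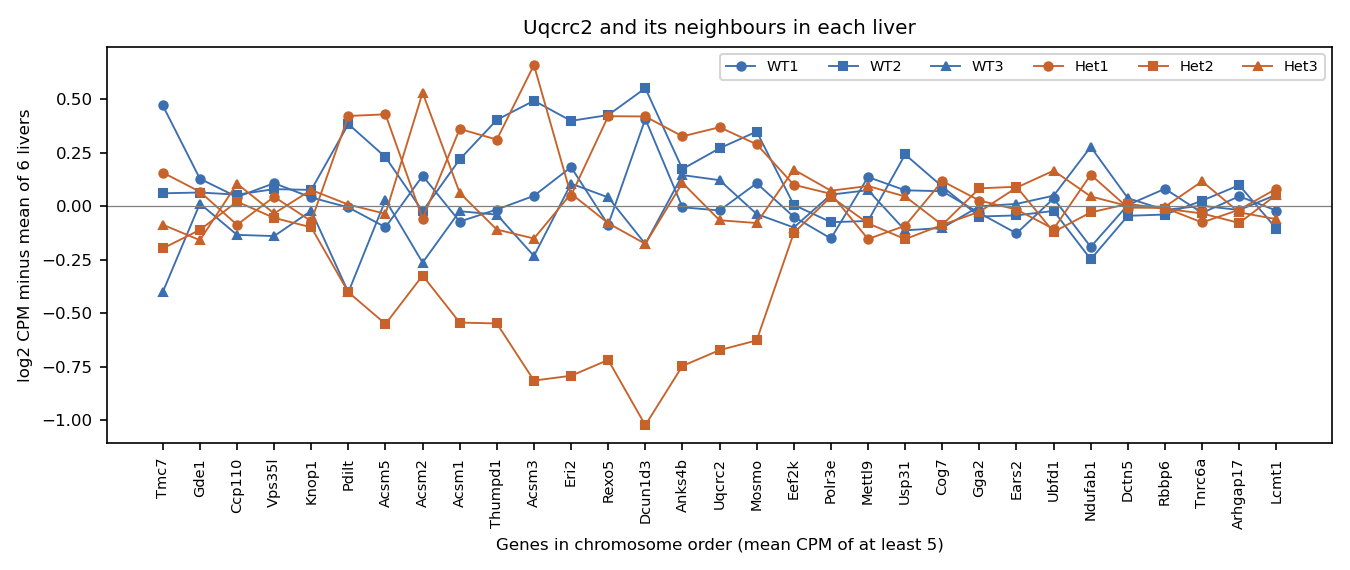
Log2 CPM minus the mean of the 6 livers (vertical axis) for Uqcrc2 and its neighbours in chromosome order (horizontal axis, genes with a mean of at least 5 CPM); blue lines are WT and orange lines Het livers, with 1 marker shape per replicate number. From Pdilt to Mosmo the livers spread apart, with Het2 lowest in 11 of 12 genes, and at Eef2k they come together again.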

How the data were processed

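RNA sequencing of poly(A) RNA from 6 livers was used, 3 per genotype, with genotype and replicate number from the labels. The authors deposited whole-number counts per Ensembl gene, not normalised, and the submitters' processing notes name TopHat2 2.0.11, HTSeq 0.6.1, DESeq and mm9 without their roles; the counting strand and annotation release are not given in the sources used here. Of 37991 rows, 32919 had a symbol in the reference name table. The reference annotation (GENCODE M21) is of another build and was used for names, gene order, transcript lengths and a comparison of start sites only, and promoter letters and their coordinates come from RefSeq GRCm38.p6.

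Counts were filtered with filterByExpr (12631 genes left), scaled by TMM (factors 0.977 to 1.02) and fitted in R 4.3.3 with edgeR 4.0.16 (robust quasi-likelihood, genotype as sole factor, Benjamini-Hochberg over all genes tested, threshold 0.05). Genes had a median SE of the log2 fold change of 0.125 at a biological coefficient of variation of 0.134. Log2 CPM used a prior count of 2. The steps were tested on simulated data.

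Members and lists were chosen with earlier results of these data known. Named were Ing5, in each complex the 3 most abundant members and the 2 with the smallest p, the tissue isoforms with their partners, the complex I core, the c ring and Atpif1, and members of other lists by abundance or smallest p. A member of these is not reported here by name. Other named genes were chosen after their values were seen. Alternatives were DESeq2 size factors, other filters, no robust estimation, library sizes computed after removing the 20 most abundant genes, a replicate block, DESeq2 1.42.0, limma-voom (limma 3.58.1), a threshold of 0.1, each library left out, and other scalings of CPM. The counts of members above 0, of members with WT3 highest and WT2 lowest, and of members with Het livers within the WT range were added after the data were seen.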

Additional observations from a re-analysis of the deposited data

How the results depend on the processing

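0 members were called in any setting run, and the lowest adjusted p of a member in any of them was 0.182. Of all genes, edgeR called 0 (547 at an unadjusted p of 0.05), 1 without the low-count filter, and 0 to 17 with a library left out (17 without WT replicate 3, 10 without Het replicate 1); DESeq2 called 13 and limma-voom 0. Members above 0 numbered 45, and 16 to 73 with a library left out, the extremes without WT replicate 2 and WT replicate 3. The median log2 fold change of the members then ranged from -0.08 to 0.13, and 58 members changed sign in some alternative, 2 of them outside the fits that leave out a library. The log2 fold change of Ing5 ranged from -0.116 to 0.0077 over the livers left out (0.0077 without WT replicate 2), that of Sdhb from -0.243 to 0.0625 (0.0625 without WT replicate 3) and that of Uqcrc2 from -0.466 to 0.0391 (0.0391 without Het replicate 2); the cause was not tested. With CPM on the total count, WT3 was highest and WT2 lowest for 60 members and the Het livers lay within the WT range for 64, against 64 and 68 under the other scalings. The replicate block gave 0 calls among all genes and 0 among members, with 47 members above 0. Same-numbered livers correlated at -0.02, -0.08 and 0.22, and not every liver correlated best with its own number. These correlations cannot show whether same-numbered livers were handled together. With 3 livers per genotype and a median SE of 0.125, small differences could not be seen, and genes near the floor of 0.136 to 0.154 CPM had no test.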
